A study of Mus musculus with 48 samples.

Results

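The genes described here are 8 genes of cholesterol synthesis and of its control by the transcription factor SREBP2, namely Srebf2, Insig1, Hmgcs1, Idi1, Fdft1, Sqle, Lss and Cyp51. They were taken as a list of symbols and matched to Ensembl identifiers, and all 8 were found among the 12423 genes with values in both assays and among the 11863 genes that passed the filter on low values. The kidneys came from male C57BL/6JRj mice of 11 to 12 weeks, with no treatment and no altered allele, that had been entrained for 2 weeks to 12 h of light and 12 h of dark. Organs were taken at 12 timepoints spaced 2 h apart, with ZT00 at lights-on and ZT12 at lights-off, as 2 replicate pools per timepoint and 2 mice per pool. Each of the 24 pools gave 1 RNA-seq library of transcript abundance and 1 RPF-seq library of ribosome-protected footprints, prepared from lysates that contained cycloheximide. Values are in RPKM over the coding sequence, and translation efficiency (TE) is the ratio of RPF to RNA in the same pool.

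Cells build cholesterol from acetyl-CoA through mevalonate, isoprenoids, squalene and lanosterol, and the enzymes of this route are classical targets of SREBP2. The precursor of SREBP2 lies in the endoplasmic reticulum bound to the escort protein SCAP, and INSIG proteins hold the pair there when sterols are plentiful. When sterols run low the pair moves to the Golgi, proteases release the active fragment, and it binds sterol regulatory elements, often next to a site for the factor NF-Y.

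RefSeq promoter entries (GRCm38.p6) were matched for 6 of the 8 genes, namely Srebf2, Insig1, Hmgcs1, Idi1, Lss and Cyp51, each covering 250 bases before to 50 after the start of transcription. The letters CCAAT, the core of an NF-Y site, were present on at least 1 strand in all 6, against 37.4% of all 32851 promoters in the table. A sterol regulatory element core written as CACNCCAC was found in Insig1 and Hmgcs1, against 6.24% of all promoters. Its shorter form CACNCCA, which overlaps the longer motif and was counted after it, also occurred in Srebf2 and was present in 18.4% of all promoters. The GC box GGGCGG was found in all 6 promoters, against 35.7% of all, and the E-box CACGTG in Insig1, against 7.15%. The 200 bases before the start are shown for the 2 regulators and for the 2 enzymes whose footprint time courses stand furthest apart. Matches to CACNCCAC and CCAAT, on either strand, are in capitals.
Srebf2, chr15:82147069-82147268, plus strand: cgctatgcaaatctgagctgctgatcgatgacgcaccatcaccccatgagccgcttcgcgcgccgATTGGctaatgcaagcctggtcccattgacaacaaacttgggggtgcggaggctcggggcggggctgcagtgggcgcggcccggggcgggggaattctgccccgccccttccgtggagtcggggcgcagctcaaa
Insig1, chr5:28071212-28071411, plus strand: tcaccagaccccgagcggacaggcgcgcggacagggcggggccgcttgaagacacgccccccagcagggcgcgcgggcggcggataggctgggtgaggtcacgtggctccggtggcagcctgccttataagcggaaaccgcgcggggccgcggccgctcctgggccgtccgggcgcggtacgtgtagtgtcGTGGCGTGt
Hmgcs1, chr13:119690151-119690350, plus strand: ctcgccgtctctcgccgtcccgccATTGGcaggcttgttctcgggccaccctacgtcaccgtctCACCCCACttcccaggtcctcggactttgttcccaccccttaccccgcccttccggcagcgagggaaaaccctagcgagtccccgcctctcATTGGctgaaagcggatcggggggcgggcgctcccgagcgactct
Idi1, chr13:8885406-8885605, plus strand: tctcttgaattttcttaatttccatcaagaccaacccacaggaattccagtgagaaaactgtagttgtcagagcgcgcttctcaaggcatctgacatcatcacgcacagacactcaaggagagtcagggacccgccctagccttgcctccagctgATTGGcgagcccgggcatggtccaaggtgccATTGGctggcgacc

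Hmgcs1 was the most abundant of the 8 genes on the RPKM scale and Lss the least. The median over the 24 pools was 502 RPKM in RNA and 877 RPKM in RPF for Hmgcs1, the synthase that makes HMG-CoA. For Cyp51, the lanosterol demethylase, the medians were 196 and 350 RPKM. Idi1, the isomerase of isopentenyl diphosphate, had medians of 110 and 268 RPKM. These 3 enzymes stood apart from each other in RNA, where each lay above the next in 24 of 24 pools, and in RPF Cyp51 lay above Idi1 in 21 of 24. Squalene epoxidase, Sqle, followed at 50.4 RPKM in RNA and 67.0 RPKM in RPF. The SREBP retention factor Insig1 had medians of 39.2 and 34.9 RPKM. The gene of SREBP2 itself, Srebf2, had medians of 26.2 and 20.6 RPKM. In RNA Srebf2 was not separated from its lower neighbour Fdft1, squalene synthase (24.5 RPKM), above which it lay in 19 of 24 pools, whereas in RPF Fdft1 (30.9 RPKM) lay above Srebf2 in 24 of 24. Lanosterol synthase, Lss, was lowest at 11.8 RPKM in RNA and 13.6 RPKM in RPF.

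On the TE scale the 6 enzymes lay above both regulators. The median TE was 2.35 for Idi1, 1.89 for Cyp51, 1.79 for Hmgcs1, 1.37 for Sqle, 1.26 for Fdft1 and 1.20 for Lss, whereas it was 0.858 for Insig1 and 0.759 for Srebf2. Of the neighbours in this order, Cyp51 and Hmgcs1 (15 of 24 pools), Sqle and Fdft1 (16 of 24) and Fdft1 and Lss (17 of 24) changed places most often. The median TE of all tested genes was 0.956, and 11 of 14 other cholesterol synthesis enzymes lay above it, with a median over that list of 1.51.

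The labels and the tissue were checked once for the series. Arntl peaked at ZT22.5, Nr1d1 at ZT7.52 and Dbp at ZT10.5 in RNA, with peak-to-trough folds of 25.0, 21.7 and 42.1, the known order of these clock genes. Median RNA levels were 1193 RPKM for Lrp2 of the proximal tubule, 2534 for Umod of the loop of Henle and 120 for Aqp2 of the collecting duct. Relative sequencing depth ran from 0.598 to 2.04 in RNA-seq and from 0.701 to 1.58 in RPF-seq, and its median was higher in the light than in the dark (1.06 against 0.774 in RNA-seq, 1.18 against 0.883 in RPF-seq). The RPF library of ZT04 replicate 2 stood apart, with 59 tested genes listed at 0 against at most 5 in any other library, so counts of rhythmic genes were repeated without it. The values of the 8 genes rest on 269 to 27540 reads per RNA library and 349 to 47092 per RPF library, and PCR copies are not separated, so any counting error is a lower limit.

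Cells other than kidney epithelium can also make cholesterol, so marker lists were summed by phase (10 pools at ZT02 to ZT10 against 10 at ZT14 to ZT22). Of 9 adrenal cortex markers, only Akr1b7 had values in the tables, at a median of 1.71 RPKM in RNA and with a range of 1.61 to 2.76 in the light and 0.807 to 2.69 in the dark. Of 6 adipose markers, 4 were listed in RNA, none of them with a median of 0, and their sum ran from 8.20 to 47.9 RPKM in the light and from 2.36 to 20.1 in the dark. In RPF 5 were listed, with a sum of 22.8 to 88.9 RPKM in the light and 5.58 to 34.9 in the dark. The sum over the 8 genes ran from 835 to 1097 RPKM in the light and from 870 to 1055 in the dark. The dark-to-light ratio of the median sum was lowest for adipose markers, at 0.376 in RNA and 0.533 in RPF, and for Akr1b7 it was 0.843 and 0.717. In RNA it was 1.31 for proximal tubule markers, 1.14 for loop of Henle and distal tubule, 1.10 for collecting duct, 0.886 for podocytes, 0.919 for endothelium, 1.03 for immune cells, 1.11 for hepatocyte markers and 1.20 for erythroid markers. Such sums follow their most abundant genes. Median RNA was 44661 RPKM for Kap, beside 49352 for the proximal tubule sum. It was 1209 RPKM for Cyp2e1, beside 1586 for the hepatocyte sum. Dark-to-light folds from mean log2 RNA were 1.31 for Kap and 0.963 (Slc34a1) to 1.17 (Cubn) for the other proximal tubule genes. They were 1.07 for Cyp2e1 and 0.652 (Fgb) to 1.25 (Serpina1a) for the other hepatocyte genes. The part of these shifts in the results below was not tested, and in whole kidney a change in the number of cells of a type and a change in RNA per cell cannot be told apart.

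**Figure D1:**
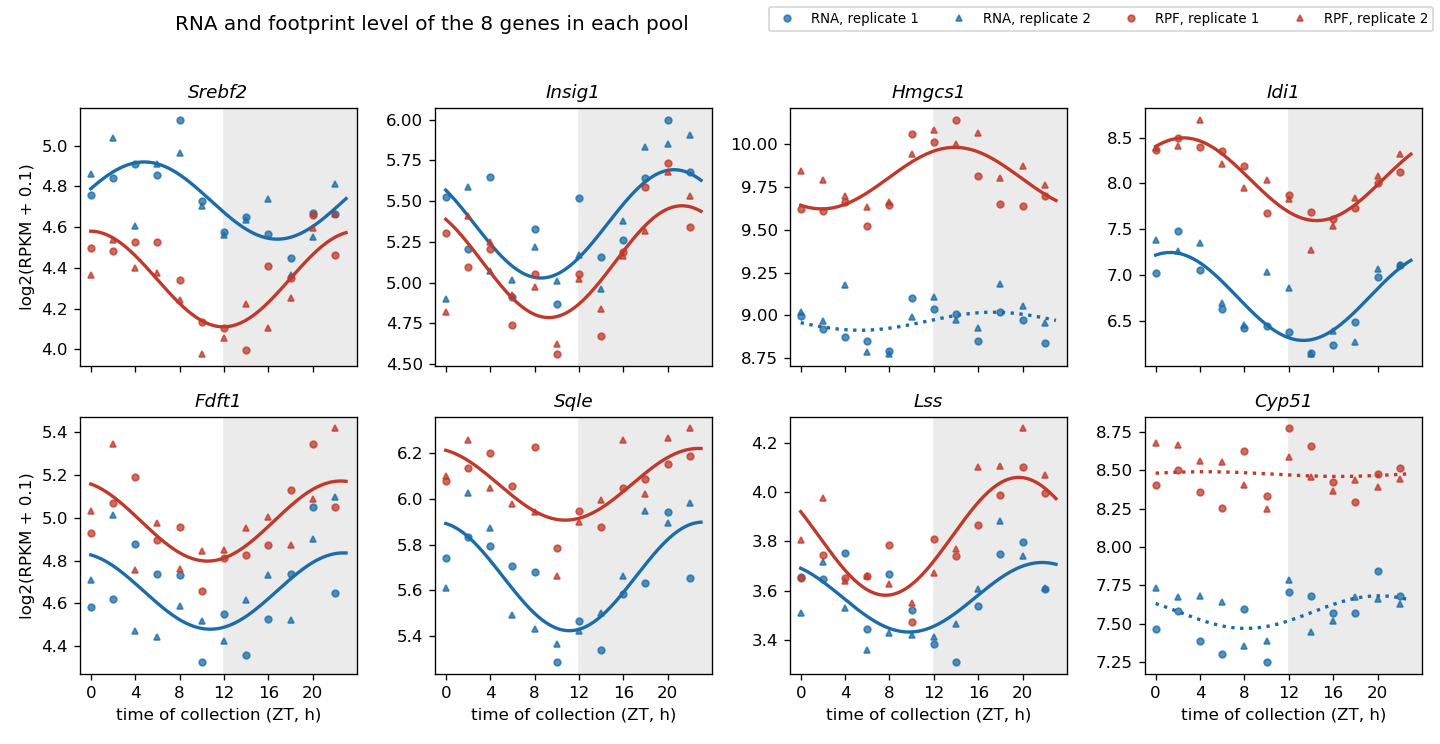
RNA (blue) and RPF (red) of the 8 genes as log2(RPKM + 0.1) against the time of collection, 1 point per pool, with the dark phase shaded. Lines are fitted 24-h curves, solid where the adjusted p was under 0.05 and dotted otherwise; Idi1 swings most, Hmgcs1 footprints are highest around lights-off, and Srebf2 RNA and footprints run out of step.

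The first question was which of these transcripts changed over the day. Idi1 and Insig1 were called rhythmic in RNA, 2 of 8 genes, at an FDR under 0.05 and a fitted peak-to-trough fold of at least 1.5, a rule that called 10.2% of all tested genes. Without the fold minimum, 6 of 8 had an adjusted p under 0.05, against 48.6% of all tested genes, and Hmgcs1 and Cyp51 did not. The median fold of the 8 genes was 1.29, beside 1.20 over all genes tested. Of the 6, 5 peaked between ZT18 and ZT02, against 34.8% of all genes with an adjusted p under 0.05 in RNA, and Srebf2 peaked in the first part of the light phase. Without replicate 1 the 6 became 2 (Sqle and Idi1), and without replicate 2 they became 4, with Fdft1 and Lss lost.

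In RPF the same rule also called Idi1 and Insig1, 2 of 8, against 7.58% of all tested genes. Without the fold minimum, 7 of 8 passed, all but Cyp51, against 30.9% of all tested genes. The 7 became 3 without replicate 1 (Srebf2, Idi1 and Lss) and 4 without replicate 2 (Srebf2, Hmgcs1, Insig1 and Idi1). The median fold of the 8 genes was 1.34, beside 1.18 over all genes tested. All adjusted p-values are from the moderated F test of limma with Benjamini-Hochberg adjustment over all genes tested. The calls of Idi1 held without replicate 1 and without replicate 2, whereas Insig1 was not called without replicate 1, with an adjusted p of 0.0779 in RNA and 0.127 in RPF.

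**Figure D2:**
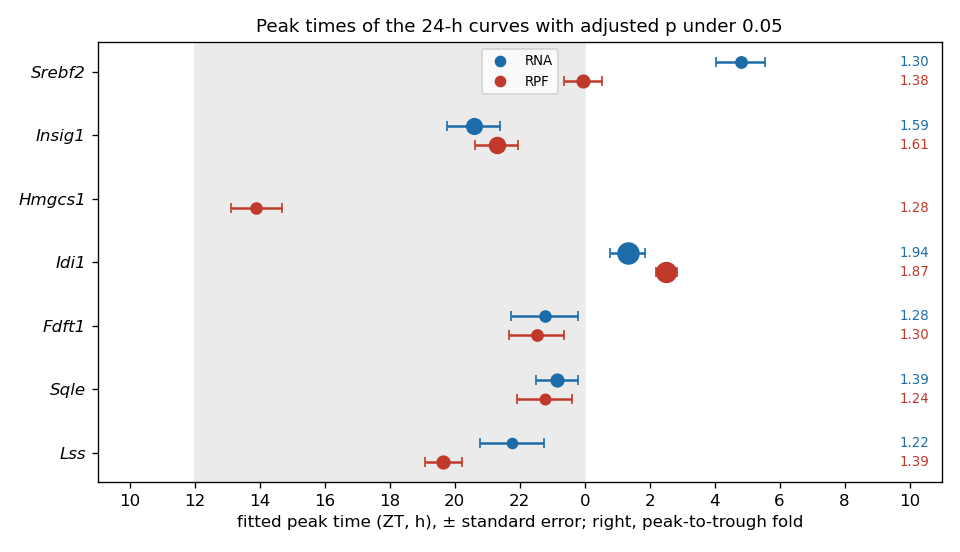
Fitted peak times with their standard errors for the members of the list with an adjusted p under 0.05, in RNA (blue) and RPF (red), on an axis in ZT hours that runs from ZT09 over the shaded dark phase to ZT11; larger points have larger folds, printed at the right. Most peaks lie between ZT19.7 and ZT2.51, with Hmgcs1 footprints at ZT13.9 and Srebf2 RNA at ZT4.81.

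Srebf2 (chr15:82147181-82205379, plus strand) showed a transcript peak and a footprint peak at different times. Its RNA was 34.8 and 31.1 RPKM in the pools of ZT08, its highest timepoint, and 21.7 and 20.5 RPKM at ZT18, its lowest. Its footprints were 25.2 and 24.1 RPKM at ZT20 and 17.4 and 15.7 RPKM at ZT10. At ZT08 the RNA was thus at its highest while footprints (20.2 and 18.8 RPKM) lay below their median of 20.6. At ZT20 footprints were at their highest while RNA (25.3 and 23.3 RPKM) lay below its median. The fitted RNA curve peaked at ZT4.81 ± 0.76 h (SE, n = 24 pools) with a fold of 1.30 (adjusted p = 0.000809). The RPF curve peaked at ZT24.0 ± 0.58 h, which is lights-on, with a fold of 1.38 (adjusted p = 9.95e-05). The footprint peak preceded the RNA peak by 4.85 h (difference -4.85 h, SE 0.92, 95% interval -6.76 to -2.95), and the difference was -4.53 h in replicate series 2 and -5.05 h in replicate series 1. With 24-h and 12-h harmonics it was -7.96 h, outside that interval, so its direction held and its size depended on the curve.

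Insig1 (chr5:28071363-28078662, plus strand), which restrains SREBP2 and is itself one of its targets, was highest late in the dark phase in both assays. Its RNA was 63.9 and 57.7 RPKM at ZT20 and 29.1 and 32.2 RPKM at ZT10. Its footprints were 53.1 and 51.2 RPKM at ZT20 and 23.5 and 24.5 RPKM at ZT10. These were the highest and the lowest timepoint, picked from the values themselves, so the gap between their pools is not a test. Replicates differed widely at ZT00, with 46.0 and 29.7 RPKM in RNA. The fitted fold was 1.59 in RNA, with a peak at ZT20.6 ± 0.80 h and an adjusted p of 0.00148. It was 1.61 in RPF, with a peak at ZT21.3 ± 0.67 h and an adjusted p of 0.000475. RNA and RPF peaks differed by 0.71 h (SE 0.56, 95% interval -0.45 to 1.87), so no shift between them was detectable.

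Hmgcs1 (chr13:119690379-119708260, plus strand), the earliest of the 6 enzymes in the route, had no detectable 24-h rhythm in RNA but had one in footprints. Its RNA ran from 438 to 582 RPKM with a median of 502, and the fitted fold was 1.08 (adjusted p = 0.389). Its footprints were 1069 and 983 RPKM at ZT10, 1033 and 1085 at ZT12, 1131 and 1026 at ZT14 and 902 and 1071 at ZT16. At the other 8 timepoints they ran from 735 RPKM at ZT06 to 938 RPKM at ZT20, so 7 of the 8 pools from ZT10 to ZT16, a window chosen after the values were seen, lay above all others. The RPF curve had a fold of 1.28 and a peak at ZT13.9 ± 0.80 h (adjusted p = 0.00263). The adjusted p was 0.151 without replicate 1 and 0.0318 without replicate 2. This peak lay nearly opposite to that of Idi1. In RPF the log2 values of Hmgcs1 and Srebf2 had a Pearson r of -0.74 over the 24 pools and those of Hmgcs1 and Idi1 an r of -0.64, given as descriptions because the genes share libraries and depth.

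Idi1 (chr13:8885501-8892451, plus strand) had the largest daily swing of the 8. Its RNA was 178 and 154 RPKM at ZT02 and 71.0 and 70.5 RPKM at ZT14. Its footprints were 336 and 414 RPKM at ZT04 and 207 and 155 RPKM at ZT14. The high and the low timepoint were picked from these values, and the ratios of their means were 2.35 in RNA and 2.08 in RPF. The fitted fold was 1.94 in RNA, with a peak at ZT1.32 ± 0.53 h and an adjusted p of 1.29e-05. In RPF it was 1.87, with a peak at ZT2.51 ± 0.33 h and an adjusted p of 1.34e-08, and the 24-h curve took up 86.0% of the variance of the log2 values. Footprints peaked 1.19 h after RNA (SE 0.53, 95% interval 0.08 to 2.30), a shift of 0.45 h in replicate series 2, 1.89 h in replicate series 1 and 1.98 h with 24-h and 12-h harmonics. Idi2, a close relative of Idi1, had no row in either table.

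Fdft1 (chr14:63145150-63179578, minus strand), Sqle (chr15:59315077-59331192, plus strand) and Lss (chr10:76531588-76557138, plus strand) carry out successive steps from farnesyl diphosphate through squalene to lanosterol, and their RNA and footprints were highest late in the dark or around lights-on. Fdft1 ran from 19.9 to 34.2 RPKM in RNA and from 25.1 to 42.7 RPKM in RPF, with folds of 1.28 (adjusted p = 0.0118) and 1.30 (adjusted p = 0.00442). Its RNA and RPF curves peaked at ZT22.8 and ZT22.5, 0.25 h apart (95% interval of the difference -1.48 to 0.97). Sqle ran from 38.9 to 65.1 RPKM in RNA and from 50.6 to 79.2 RPKM in RPF, with folds of 1.39 (adjusted p = 0.000141) and 1.24 (adjusted p = 0.00413). With 1 replicate series left out, the adjusted p in RPF was 0.0751 and 0.129 for Sqle and 0.199 and 0.0799 for Fdft1, which also missed the threshold with 12 timepoint means (0.212). The lowest timepoint of Sqle was ZT10 in both assays, with means of 40.0 and 52.8 RPKM, and its curves peaked at ZT23.1 and ZT22.8.

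Lss, which closes the sterol ring, had a larger fitted fold in footprints than in RNA. Its RNA was 13.4 and 14.7 RPKM at ZT18 and 9.81 and 10.9 RPKM at ZT14. Its footprints were 17.1 and 19.1 RPKM at ZT20 and 11.0 and 11.6 RPKM at ZT10. These extremes were picked from the same values, so a lack of overlap between their pools is not a test. The fold was 1.22 in RNA (adjusted p = 0.00915) and 1.39 in RPF (adjusted p = 0.000100), with peaks at ZT21.8 ± 0.99 h and ZT19.7 ± 0.58 h. The difference between the assays, tested as a 24-h rhythm of TE, missed the threshold (adjusted p = 0.0505 by limma). The RPF peak came 2.11 h before the RNA peak (difference -2.11 h, SE 0.94), but the difference was -0.47 h in replicate series 2, -4.29 h in replicate series 1 and -0.37 h with 24-h and 12-h harmonics.

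Cyp51 (chr5:4081145-4104746, minus strand), which acts on lanosterol, had no detectable 24-h rhythm in either assay. Its RNA ran from 152 to 230 RPKM, with a fold of 1.16 and an adjusted p of 0.0774, and its lowest and highest timepoints were ZT10 and ZT20. Its footprints ran from 304 to 438 RPKM, with a fold of 1.02 and an adjusted p of 0.952. Its TE is taken up next.

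A further question was whether footprints followed RNA, tested as a 24-h rhythm of TE, which is an assay-by-time interaction. Srebf2, Hmgcs1 and Cyp51 were called at an FDR under 0.05, 3 of 8 genes, against 17.1% of all tested genes. The median TE fold of the 8 was 1.19, the same to 2 decimals as over all genes tested (1.19). These calls need both replicate series: with 12 timepoint means in place of the cosine, or without either replicate, none of the 8 was called by limma. At an unadjusted limma p under 0.05, 3 of the 8 passed with timepoint means, against 2693 of all 11863 genes tested. Without replicate 1 it was 1 of the 8 (Srebf2), against 1856 of 11862 genes. Without replicate 2 it was 5 of the 8, against 2545 of 11861 genes.

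Srebf2 had the largest TE rhythm of the 8. Its TE was 0.995 and 1.03 at ZT20 and 0.934 and 0.923 at ZT18, against 0.580 and 0.608 at ZT08 and 0.661 and 0.604 at ZT10. The pools of ZT18 and ZT20 thus lay above all pools of ZT08 and ZT10, timepoints chosen after the values were seen. The ratio between the means of the highest and the lowest timepoint was 1.70. The fitted TE fold was 1.42, with a peak at ZT20.9 ± 0.70 h and an adjusted p of 0.00362. Leaving out ZT04 replicate 2 did not end this call.

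The TE of Hmgcs1 was 2.19 and 2.04 at ZT14 and 1.96 and 2.21 at ZT16, and it was 1.55 and 1.54 at ZT18. The step between ZT16 and ZT18, picked after the values were seen, was larger than the difference between the pools of either timepoint. It came with higher RNA (550.7 RPKM at ZT18 against 473 at ZT16 as means) and lower footprints (849 against 987 RPKM). The fitted TE fold was 1.24, with a peak at ZT12.8 ± 0.97 h and an adjusted p of 0.0253.

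The TE of Cyp51 was 2.04 and 2.08 at ZT08 and 1.54 and 1.66 at ZT20. RNA was near its highest at ZT20 (230 and 203 RPKM), while footprints (355 and 336 RPKM) were close to their median of 350 RPKM. The fitted TE fold was 1.17, with a peak at ZT7.71 ± 1.01 h and an adjusted p of 0.0304. Lss missed the threshold with an adjusted p of 0.0505 at a TE fold of 1.21. For Insig1, Idi1, Fdft1 and Sqle the adjusted p ran from 0.221 to 0.925, which does not show that their TE was constant.

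**Figure D3:**
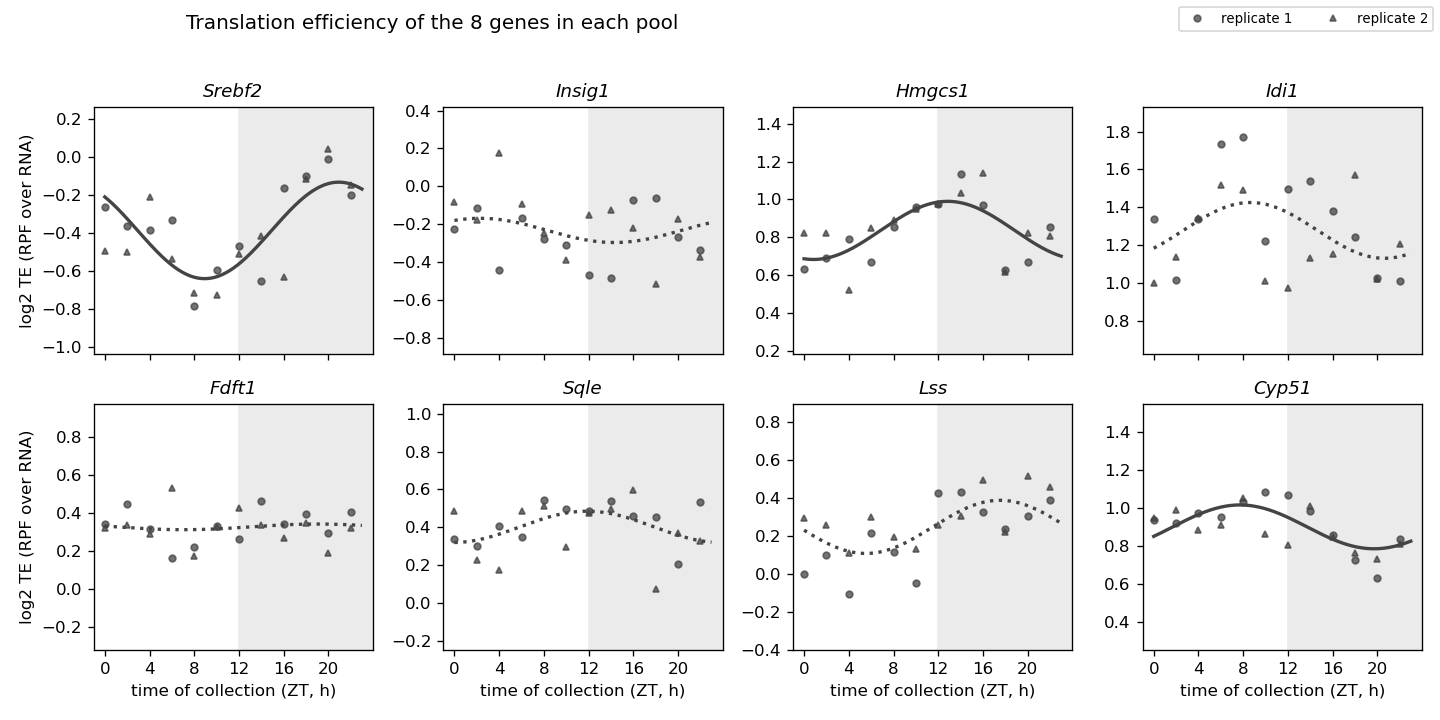
TE of the 8 genes, as log2 of RPF over RNA in each pool, against the time of collection, with replicate 1 as circles, replicate 2 as triangles and the dark phase shaded; every panel spans the same height. Solid curves mark an adjusted p under 0.05: Srebf2 with a fold of 1.42, Hmgcs1 with 1.24 and Cyp51 with 1.17.

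A plain comparison of the dark phase (10 pools) with the light phase (10 pools), leaving out both light switches, gave 1 higher and 1 lower gene in each assay. In RNA Insig1 was higher in the dark, 1 of 8 genes against 13.0% of all tested genes. Its median was 50.5 RPKM in the dark and 35.2 RPKM in the light. Log2 differences here are between the mean log2 values of the phases, not between the medians. That of Insig1 was 0.38 ± 0.13 (SE, adjusted p = 0.0270 by limma). Srebf2 was lower in the dark, 1 of 8 against 16.4%, with medians of 24.9 and 29.4 RPKM and a log2 difference of -0.26 ± 0.06 (adjusted p = 0.00446). In RPF Lss was higher in the dark, 1 of 8 against 6.79%, with medians of 16.3 and 12.5 RPKM and a log2 difference of 0.32 ± 0.07 (adjusted p = 0.00355). Idi1 was lower in the dark, 1 of 8 against 8.71%, with medians of 221 and 312 RPKM and a log2 difference of -0.42 ± 0.12 (adjusted p = 0.0265). The ranges of the phases overlapped for every member in both assays. Without replicate 1 no member was called in either assay, and without replicate 2 Srebf2 alone was called, in RNA.

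Other genes of the pathway were taken from lists. Of 14 other cholesterol synthesis enzymes, 2 were called in RNA and the same 2 in RPF, against 10.2% and 7.58% of all tested genes. Without the fold minimum, 8 had an adjusted p under 0.05 in each assay, against 48.6% of all tested genes in RNA and 30.9% in RPF. Fdps, which makes farnesyl diphosphate, had folds of 1.86 in RNA and 1.79 in RPF with peaks at ZT22.8 and ZT23.0. Msmo1, a sterol methyl oxidase, had folds of 1.99 and 1.66 with peaks at ZT22.3 and ZT22.7. The median fold of the list was 1.26 in RNA and 1.21 in RPF.

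Of 16 genes of sterol uptake, transport and SREBP control, 1 was called in RNA and 2 in RPF, against 10.2% and 7.58% of all tested genes. Srebf1, the gene of SREBP1, had folds of 1.59 and 1.85 with peaks at ZT19.7 in both assays, and Lpin1 was called in RPF alone with a fold of 1.51. Scap was not called, with folds of 1.13 and 1.03, nor was Insig2, with 1.14 in each assay. The TE of Insig2, the second INSIG gene, had a fold of 1.29 and a peak at ZT15.2 (adjusted p = 0.0259).

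Of 11 fatty acid synthesis genes, which SREBP1 chiefly serves, 2 were called in each assay. The shares over all tested genes were 10.2% in RNA and 7.58% in RPF, here and for the next list. The desaturase gene Scd2 had folds of 1.68 and 1.85, with peaks at ZT19.2 and ZT19.0. Fasn, fatty acid synthase, was called in RPF with a fold of 1.51, and Thrsp in RNA with a fold of 1.60. Of 8 genes of sterol efflux and storage, the exporter gene Abcg1 was called in both assays, with folds of 1.51 and 1.92 and peaks at ZT16.2 and ZT16.6. Genes called in TE alone were named after their values were seen, and they were Dhcr7 (fold 1.49), Elovl5 (1.32), Fads2 (1.27) and Stard4 (1.23).

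**Figure D4:**
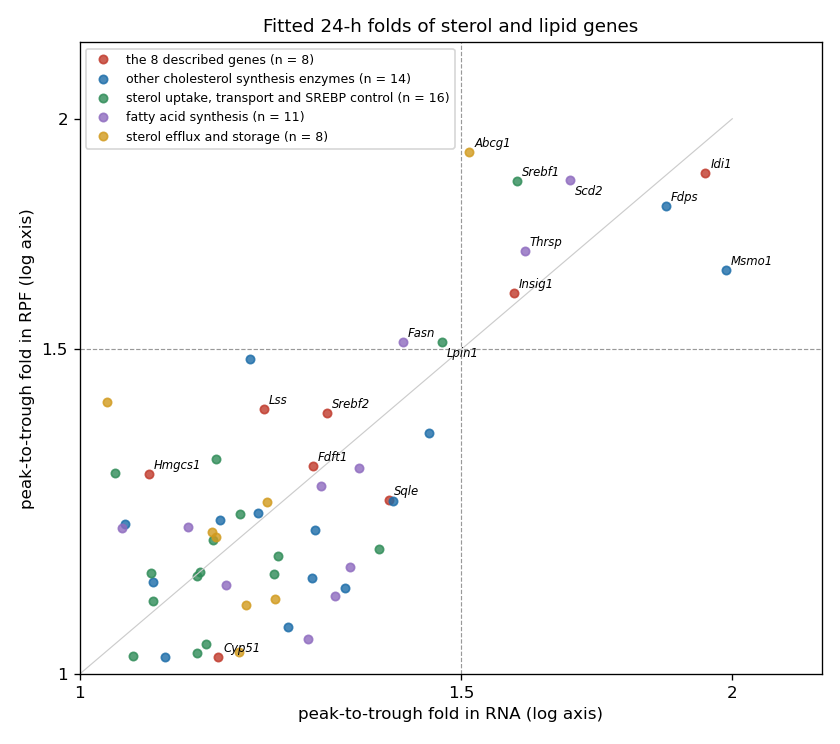
Fitted peak-to-trough fold in RNA against that in RPF, both on log axes, for the 8 described genes and the 4 other lists; dashed lines mark a fold of 1.5 and the grey line equal folds. Idi1, Fdps, Msmo1 and the fatty acid synthesis gene Scd2 lie at folds of 1.66 to 1.99, while most other genes, 6 of the 8 included, lie under 1.5.

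Other genes, outside every list, were ranked by how closely their log2 values followed the mean of the 8 z-scored time courses over the 24 pools, among 10127 genes with a median of at least 2 RPKM in both assays. In RNA the highest Pearson r were those of Osbpl8 (0.87), an oxysterol-binding protein gene, Ifi44 (0.87), Pter (0.83), Cldn10 (0.82) and Ppa1 (0.81). In RPF they were those of Tmem19 (0.82), Gm49342 (0.80), Arrdc3 (0.79), Itga6 (0.78) and Ypel2 (0.77). The 5 genes in RNA peaked from ZT22.1 to ZT23.4 and the 5 in RPF from ZT21.8 to ZT23.2, and all share the libraries and depth of the 8 genes. Among the 8 themselves the Pearson r between pairs had a median of 0.25 in RNA and 0.21 in RPF over 28 pairs, from -0.66 to 0.78 and from -0.74 to 0.77.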

How the data were processed

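Per the labels and the study's methods, the authors removed adapters (Cutadapt), size-selected reads of 26 to 35 nt for RPF-seq and 21 to 60 nt for RNA-seq, and aligned them with Bowtie 2.2.1 to rRNA, then tRNA, then cDNA of Ensembl release 75. Tophat 2.0.11 on GRCm38.p2 and Cufflinks 2.2.1 gave the transcript models. Reads on coding sequences were counted, scaled by upper quantiles with edgeR and deposited by the authors as 1 RPKM value per gene and library. Genes under an RPKM cutoff are not listed, and upper quantile scaling hides any change in total mRNA or footprints per cell. Whole reads behind the RPKM values were recovered for 229 of 230 profiles of listed genes (tolerance 0.001 reads) and gave the read ranges above. Relative depth came from repeated ratios between low genes. Neither entered a test.

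Identifiers were matched to symbols, the 12423 genes in both assays were kept, and the 11863 genes with a median of at least 0.5 RPKM in both were tested. Rhythms were tested on log2(RPKM + 0.1) with limma 3.58.1 in R 4.3.3 (lmFit, eBayes with trend) by moderated F statistics for the cosine and sine terms of a 24-h period over 24 pools, with Benjamini-Hochberg adjustment. Folds are on that scale and understate changes of low genes. Called genes had an FDR under 0.05 and, in RNA and RPF, a fitted fold from trough to peak of 1.5 or more; TE (log2 RPF minus log2 RNA per pool) used the FDR alone. Dark (ZT14 to ZT22) was compared with light (ZT02 to ZT10) by the moderated test of limma. Standard errors of peak differences include the covariance between the assays of a pool (delta method), with 95% intervals. The fits were tested on simulated data with known rhythms of a larger fold than that of any member. Smaller folds, such as those reported here, were not covered. Other steps used Python 3.11.15, numpy 2.4.6, pandas 2.3.3 and scipy 1.17.1. Gene positions are from GENCODE vM21 on GRCm38, newer than the authors' annotation, and promoters from RefSeq on GRCm38.p6.

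All 8 genes were described. From other lists, genes called in RNA or RPF were named (at most 6 per list), with Scap, Insig2 and Srebf1 in any case, 3 clock genes to check the times, and the 5 genes per assay most like the 8. Some genes of these lists are not reported here and were left out of the lists' counts. The members, lists and tests were chosen with earlier results of these data known. Pools of a timepoint are different mice. The p-values rest on the spread of pools around the fitted curve or within a phase. That spread also holds changes with time that the curve or the phase mean leaves out. Alternatives were other pseudocounts, filters, curves and scalings, a replicate block, AIC selection and leaving out pools. Liver was not analysed here.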

Additional observations from a re-analysis of the deposited data

Results flagged for a closer look

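For 3 of the 8 genes the effect of time of day differed between footprints and RNA by the test of the difference itself, the 24-h rhythm of TE. The same test called 17.1% of all tested genes. The log2 peak-to-trough difference of TE was 0.51 for Srebf2, 0.31 for Hmgcs1 and 0.23 for Cyp51, with adjusted p-values of 0.00362, 0.0253 and 0.0304 by limma. For Srebf2 the RNA and RPF curves both passed the test at different peak times, for Hmgcs1 only the RPF curve passed, and for Cyp51 neither passed. None of these calls held in either replicate series alone, with 1 pool per timepoint.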

How the results depend on the processing

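The 24-h rhythm calls of Idi1 in RNA and RPF held under every alternative run, and those of Insig1 under all but leaving out replicate 1. The members called in RNA went from 2 to 4 with 12 timepoint means (Srebf2 and Sqle added) and were 1 to 2 with a replicate left out. With timepoint means the fold is that between the highest and the lowest mean, not that of a fitted curve. The log2 fold rose from 0.379 to 0.638 for Srebf2 and from 0.474 to 0.606 for Sqle. Their adjusted p by limma also rose, from 0.000809 to 0.00840 and from 0.000141 to 0.00973. In RPF they numbered 2 with either replicate left out, but without replicate 1 Lss took the place of Insig1. In TE they went from 3 to 0 with 12 timepoint means, and to 0 with either replicate left out. With ZT00 counted as dark and ZT12 as light, the members that differed between dark and light went from 2 to 0 in RNA and from 2 to 1 in RPF, and with a replicate left out they numbered 0 to 1 in RNA and 0 in RPF. Over all tested genes, a pseudocount of 1 lowered the rhythmic count from 1210 to 781 in RNA and from 899 to 590 in RPF, since it shrinks folds of low genes. With 12 timepoint means the count was 2291 in RNA, where the definition of the fold also changed. In TE, which had no fold minimum, it was 101, against 2028 with the cosine, and the causes were not tested. With a replicate left out the counts were 716 to 1429 in RNA, 370 to 853 in RPF and 0 to 2 in TE, where 1856 and 2545 genes had an unadjusted p under 0.05, and without ZT04 replicate 2 alone they were 908 in RPF and 1833 in TE.

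The peak time difference between RPF and RNA, read from a curve with 24-h and 12-h harmonics, was -7.96 h for Srebf2, -0.76 h for Hmgcs1, -0.34 h for Insig1 and 0.94 h for Fdft1, against -4.85, -3.48, 0.71 and -0.25 h with the 24-h curve, and the cause was not tested. Hmgcs1 RNA has no detectable peak, and the 95% interval of its difference with the 24-h curve was -8.25 to 1.30 h. With a replicate left out the difference ran from -0.54 to 0.23 h for Sqle and from -5.25 to 3.07 h for Cyp51, whose footprints have no detectable peak. Small dark minus light log2 differences that were not called changed sign: with a replicate left out they ran from -0.0299 to 0.161 for Sqle and from -0.00681 to 0.171 for Lss in RNA, and from -0.0261 to 0.0620 for Srebf2, -0.0120 to 0.192 for Sqle and -0.0675 to 0.0588 for Cyp51 in RPF. With quantile normalization Hmgcs1 in RNA was at -0.0154, and without ZT04 replicate 2 Cyp51 in RPF was at 0.00776.

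The replicate number did not act as a pairing across timepoints: differences between replicates correlated with a median r of 0.01 in RNA and 0.04 in RPF over 66 pairs of timepoints, of which 13 and 10 were above 0.1. With a replicate block the members called were 2 in RNA, 2 in RPF and 4 in TE, where Lss was added (adjusted p = 0.0406), and the genes called were 1214, 895 and 2161. Upper quantile scaling and 2 pools per timepoint limit what can be said of small folds, and TE carries the error of both assays.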

Other observations

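The genes that carry and cut the SREBP precursor had some of the lowest and some of the higher TE levels in the lists. Median TE was 0.199 for Scap, the escort protein, which 2.09% of tested genes lay below, and 0.161 for Mbtps1, the first SREBP protease, which 1.22% lay below. For Mbtps2, the second protease, it was 1.62, and 87.4% of tested genes lay below it. Median RNA was 40.8 RPKM for Scap, 32.8 for Mbtps1 and 7.21 for Mbtps2, while median RPF was 8.51, 5.19 and 10.8 RPKM. Mbtps1 and Mbtps2 were named after their values were seen. Among the 14 synthesis enzymes outside the 8, Ggps1 was lowest at a TE of 0.417 and Dhcr7 highest at 2.03, both likewise named after their values were seen.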
